A study of Homo sapiens with 8 samples.

Results

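The cytosolic ribosomal protein genes encode the protein part of the ribosome that reads nuclear-encoded mRNAs. Genes were taken as members when their symbol was RPL or RPS plus digits, with or without the suffix A, X or L, or was RPSA, RPLP0, RPLP1 or RPLP2. Mitochondrial ribosomal protein genes, RPS6K kinases and pseudogenes were left out. The gene table held 82 such genes, 80 had a probe on the array, and 78 of the 11214 genes that were measured on all arrays were members, 47 of the large subunit and 31 of the small subunit. RPL10 and RPSA had no probe under a matched accession, and the probes of RPL27A and RPL3L were well above background in both channels on only 4 and 7 of the 8 arrays.

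Large subunit proteins (RPL) belong to the subunit that joins amino acids, and small subunit proteins (RPS) to the one that holds and decodes the mRNA. Their mRNAs are among the most abundant of a growing cell. Most begin with a C and a run of pyrimidines, the 5′ terminal oligopyrimidine (TOP) tract, through which growth signals and the protein LARP1 control their translation together.

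Each of the 8 two-colour arrays set Cy5-labelled RNA of treated or edited lung cancer cells against Cy3-labelled RNA of the same cell line, with no dye swap. EBC-1 and SK-MES-1, lines labelled as lung squamous cell carcinoma, were transfected with miR-150-3p, the passenger strand of the miR-150 duplex, on 1 array each. SBC-3, labelled as small cell lung cancer, received 1 of 3 siRNAs, siDONSON-1, siDONSON-2 or siDONSON-3, against DONSON, a replication fork protein, on 1 array each. A549, labelled as lung adenocarcinoma, carried LOXL2 genome editing by CRISPR/Cas9 on 3 arrays (A549-GE1, A549-GE2 and A549-GE3). LOXL2 encodes a lysyl oxidase. Controls were called mock and without transfection for the first 3 lines, and control without genome editing for A549. The labels did not say whether the 3 edited samples were clones or pools, nor whether controls were shared between arrays. Group and cell line cannot be told apart here, except between EBC-1 and SK-MES-1, and p-values measure only the spread between arrays. In bulk RNA, fewer cells with an mRNA and less of it per cell cannot be told apart.

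The targeted genes followed the labels. DONSON had log2 ratios of -2.15, -1.79 and -2.11 on the siDONSON arrays, and LOXL2 of -2.49, -2.67 and -2.59 on the A549 arrays. Of 6 squamous markers, only SOX2 was well above background in the control channel of EBC-1, and TP63 and SOX2 in that of SK-MES-1, while KRT5, KRT6A, DSG3 and DSC3 were not on any array. NEUROD1, CHGA and SYP of 7 small cell markers were above background on all 3 SBC-3 arrays, and POU2F3 and INSM1 on none. In A549, NAPSA, KRT7, KRT18 and EPCAM of 6 adenocarcinoma or general epithelial markers were above background, and NKX2-1 and SFTPB were not. Most of these markers did not tell the lines apart. NAPSA, KRT7, KRT18 and EPCAM were also above background in EBC-1 and SK-MES-1, and KRT7 and KRT18 in SBC-3. SOX2 was above background on all 8 arrays, TP63 also on the SBC-3 arrays and A549-GE1, and CHGA also in A549. NEUROD1 and SYP were above background only on the SBC-3 arrays.

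The windows below show the first bases of 12 members on which the results turn, with 10 bases before the RefSeq start and 15 from it, 25 in all, on the gene's own strand (GRCh38.p14). Capitals mark a C at the first base followed by at least 4 bases that are C or T. The last 2, RPS27L and RPL10L, are shown because they lack it. The windows above them were all chosen with it.
RPS21, chr20:62387093-62387117, plus strand: ctagctgcttCCTTTCTCTCTCgcg
RPS16, chr19:39435935-39435959, minus strand: ccctagctttCCTTTTCCggttgcg
RPL38, chr17:74203668-74203692, plus strand: aagtctcgttCTTTTTCgtcctttt
RPL31, chr2:101002279-101002303, plus strand: ccttcgcgctCTTCCTTTCCaactt
RPLP0, chr12:120201097-120201121, minus strand: ggcgcgaggcCCTTCTCTCgccagg
RPS27A, chr2:55232678-55232702, plus strand: ggcgttcttcCTTTTCgatccgcca
RPL36, chr19:5690285-5690309, plus strand: cggcgccagcCCTTCCgccacggcc
RPL26, chr17:8383179-8383203, minus strand: gcgtgtagttCTCTTCCCTTTTgcg
RPL39, chrX:119791616-119791640, minus strand: ccgccagcttCCCTCCTCTTCCTTT
RPS24, chr10:78033853-78033877, plus strand: aatcgtggttCTCTTTTCCTCCTTg
RPS27L, chr15:63157463-63157487, minus strand: gatgccgagcgcagatcgcttgcag
RPL10L, chr14:46651767-46651791, minus strand: gtagttaagagagcgcattttgact

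Starts were given for 65 members, and 46 of them (70.8%) had such a tract at the first base of at least 1 start, against 5.14% of all 27305 genes. Only the gene's own strand, as printed above, was searched. A tract beginning within 5 bases either side of the start was found for 83.1% of these members and 25.2% of all genes. Median ratios lay close together with and without the tract, and no test of the difference was made. The 43 measured members with it had median log2 ratios of -0.07 on the EBC-1 array and -0.02 on A549-GE3. The 19 without it had -0.09 and -0.05. On A549-GE1 the medians were -0.03 with it and -0.09 without it, and on siDONSON-2 -0.01 and 0.02. No window is shown for RPL5, RPL23, RPL30, RPS20 and RPL39L. RPS7, RPL6 and RPS26 had no tract at the first base of any start given and are not shown either. RPS27A also had starts without it.

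Taken as a family, the ribosomal protein genes stayed near 0 and close to each other on every array. The median log2 ratio of the large subunit genes was -0.07 for the EBC-1 array and -0.02 for SK-MES-1. It was 0.05, 0.02 and 0.07 on the 3 siDONSON arrays, and -0.04, -0.06 and -0.05 on the 3 A549 arrays. For the small subunit genes the medians were -0.11 and -0.05, then 0.03, -0.03 and 0.05, then -0.03, -0.02 and -0.003. The median of all genes lay between -0.004 and 0.04. The direction of these medians is not settled: with background-subtracted signals, centred on the array's median without dye correction, the median of all members was above 0 on every array, from 0.21 to 0.38, while that of all genes stayed between -0.004 and 0.03.

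The member probes were bright. Of the 150 member probes, 134 were among the brightest 5% of the 18142 probes counted, and 75 were among the brightest 1%, where they made up 41.2% of the 182 probes. The part of brightness in that dependence was not tested. A shift shared by all members and a dye effect at the bright end cannot be told apart with these arrays. Fitting the dye curve with the ribosomal protein probes left out gave member medians between -0.03 and 0.11. The differences among members, and those between groups, are what the rest of the results rest on.

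The spread among members was narrow, though all genes were not matched to them for brightness or number of probes. The part of either in the SDs below was not tested. The SD over the large subunit genes was 0.13 to 0.32, and over the small subunit genes 0.15 to 0.29, against 0.30 to 0.60 over all genes. A log2 ratio beyond 0.5 either way was found for 4 members in EBC-1 (background 31.8% of genes) and 1 in SK-MES-1 (8.28%). It was found for 1 member on each siDONSON array (16.7%, 16.6% and 15.2%), and for 3 on each A549 array (13%, 12% and 11.5%). The median SD of a member over the arrays of its group was 0.07 for miR-150-3p, 0.08 for siDONSON and 0.04 for the edited A549 arrays, against 0.19, 0.21 and 0.08 for all genes.

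**Figure D1:**
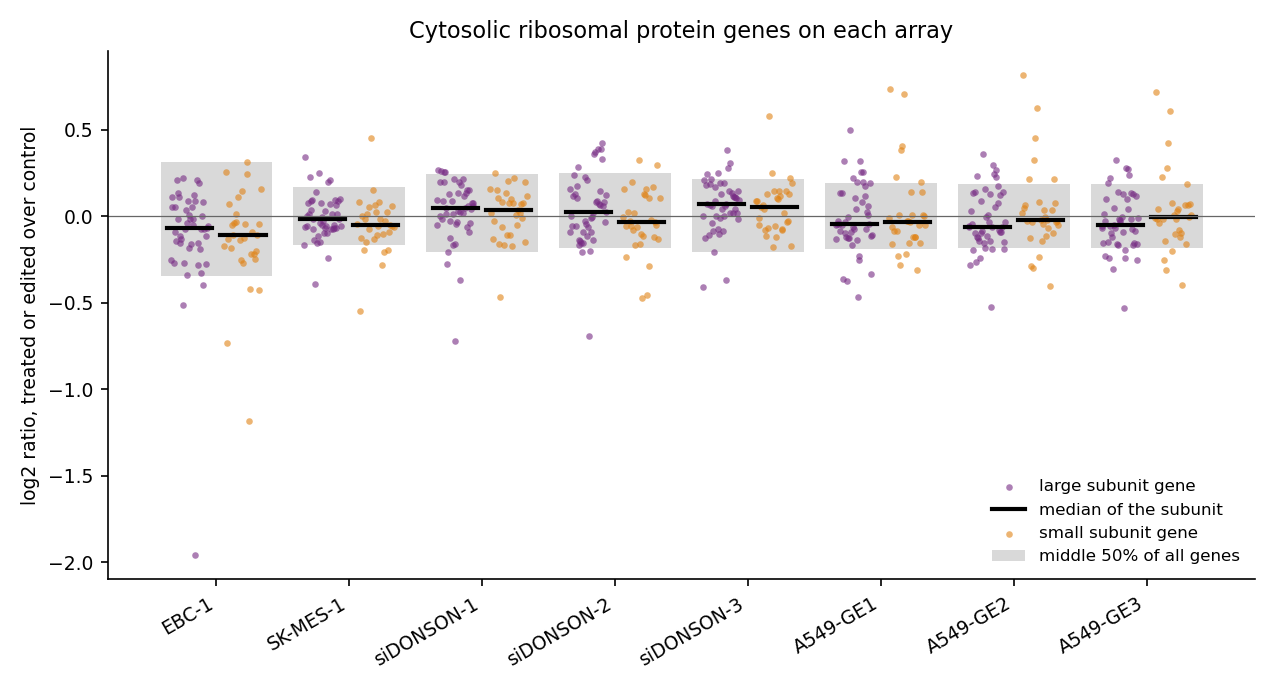
Log2 ratio of treated or edited over control RNA (vertical axis) of the 47 large and 31 small subunit genes on each of the 8 arrays, with the median of each subunit as a bar and the middle 50% of all 11214 genes in grey. The medians sit within 0.11 of 0, and single genes such as the lowest point in EBC-1, RPL39L at -1.96, stand off.

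With miR-150-3p, 2 members passed the test, both lower. RPL36 of the large subunit had ratios of -0.52 and -0.39 that averaged -0.45 (SE 0.09, limma adjusted p = 0.0254). Its ratios on the other 6 arrays were also below 0, from -0.37 to -0.15, so the groups nearly met. These 2 of 78 members called compare with a background of 11.1% of genes in either direction and 6.5% lower. Without the EBC-1 array no member was called, by limma, among 24 genes called in all, and without the SK-MES-1 array 6 were, all lower. Without any 1 of the A549 arrays the count was 1.

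Larger ratios came from EBC-1 alone. RPL39L, a testis-enriched copy of RPL39 at the exit tunnel of the large subunit, reached -1.96 in EBC-1 but -0.24 in SK-MES-1, and lay between -0.37 and -0.06 on the other 6 arrays. Its only probe was dim for a member, with a mean log2 signal of 10.9, and the scanner software gave its EBC-1 ratio an error of 0.27. The difference between both lines was -1.72 (SE 0.20, limma adjusted p = 0.0123), the only member among 78 past the threshold there (background 3.34%, and 2.67% lower). Each line had 1 array, so the spread in this test and in those of single lines was that of the siDONSON and A549 arrays, and the line difference has no replicate check of its own. The parent gene RPL39, by 4 probes, was at 0.06 and -0.06. RPS23, a decoding-centre protein of the small subunit, was at -1.18 in EBC-1, but its 2 probes disagreed: the dimmer gave -2.19 and the brighter -0.18. RPS6, the small subunit protein phosphorylated by the S6 kinases, read -0.42 in EBC-1 and only -0.10 in SK-MES-1. RPS6, RPL36, RPL39L and RPS23 were among the 6 members called lower when EBC-1 was fitted as a group of its own (background 25.7% in either direction, 15.1% lower). None was called by limma in SK-MES-1 (background 0.214%), where 3 had an unadjusted p under 0.05.

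The higher end was within the spread. RPS27L, a p53-induced copy of RPS27, had the highest mean of the members with miR-150-3p, at 0.28 (SE 0.17, limma adjusted p = 0.293), from 0.11 (EBC-1) and 0.45 (SK-MES-1). RPL22, RPL37, RPL35A and RPS29 followed with means of 0.23, 0.22, 0.21 and 0.20, none past the test. RPL35A was the steadiest of these, at 0.21 on both arrays. For RPS29 the mean came from its dimmest probe, at 1.39 (EBC-1) and 0.62 (SK-MES-1). Its brighter probes lay from -0.08 to -0.01 and from -0.24 to 0.002. The dimmer probe was also the higher for RPL37 (0.30 and 0.45, against 0.12 and 0.01). So it was for RPL22 (0.16 and 0.54, against 0.06 and 0.14).

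With the siRNAs against DONSON, RPL23 alone passed the test. RPL23, a large subunit protein that also binds MDM2, had ratios of 0.18, 0.36 and 0.38 that averaged 0.31 (SE 0.08, limma adjusted p = 0.0425), against a background of 9.94% of genes called, 5.58% higher. Its ratio was above 0 on all 8 arrays, between 0.09 and 0.38, and the call was lost without siDONSON-2, without siDONSON-3 and without any 1 of the A549 arrays (0 members each), while 5 members were called without EBC-1 and 5 without SK-MES-1. RPL35A, at 0.21, 0.37 and 0.28, and RPL31, at 0.26, 0.29 and 0.21, lay close behind (limma adjusted p = 0.0506 and 0.0608). No member was called lower.

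The 3 siRNAs differed more among themselves than the group mean shows. RPL5, which carries 5S rRNA into the large subunit and binds MDM2 with RPL11, was at -0.72 with siDONSON-1, and at -0.06 and 0.13 with the others. All 4 of its probes were low with siDONSON-1, from -0.92 to -0.54, below every value of the other 2 siRNAs. RPL11 itself was at 0.01, -0.16 and 0.06. RPL26 was at -0.69 with siDONSON-2 by both probes (-0.61 and -0.77), against -0.05 and 0.04. RPL39 was at -0.41 with siDONSON-3, by 4 probes from -0.46 to -0.33, against 0.10 and -0.09. RPS24 was at -0.47 with siDONSON-1, against -0.08 and -0.11, by 1 probe. RPS26 was at -0.47 with siDONSON-2, against 0.07 and -0.06, by 2 probes. RPS27L was at 0.58 with siDONSON-3, and at -0.17 and -0.06 with the others. Each siRNA thus had members of its own that stood off by all their probes, with 1 array behind each, so these are values with no test. A distance of more than 0.5 from the mean of the other 2 arrays was found for 1, 2 and 2 members on the 3 siRNA arrays in turn (background 15.1%, 19.5% and 11.7% of genes), and for none on the A549 arrays (2.1%, 1.05% and 1.52%). RPL5 is counted with both siDONSON-1 and siDONSON-3. With siDONSON-3 it was at 0.13, and the mean it was set against held the -0.72 of siDONSON-1.

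**Figure D2:**
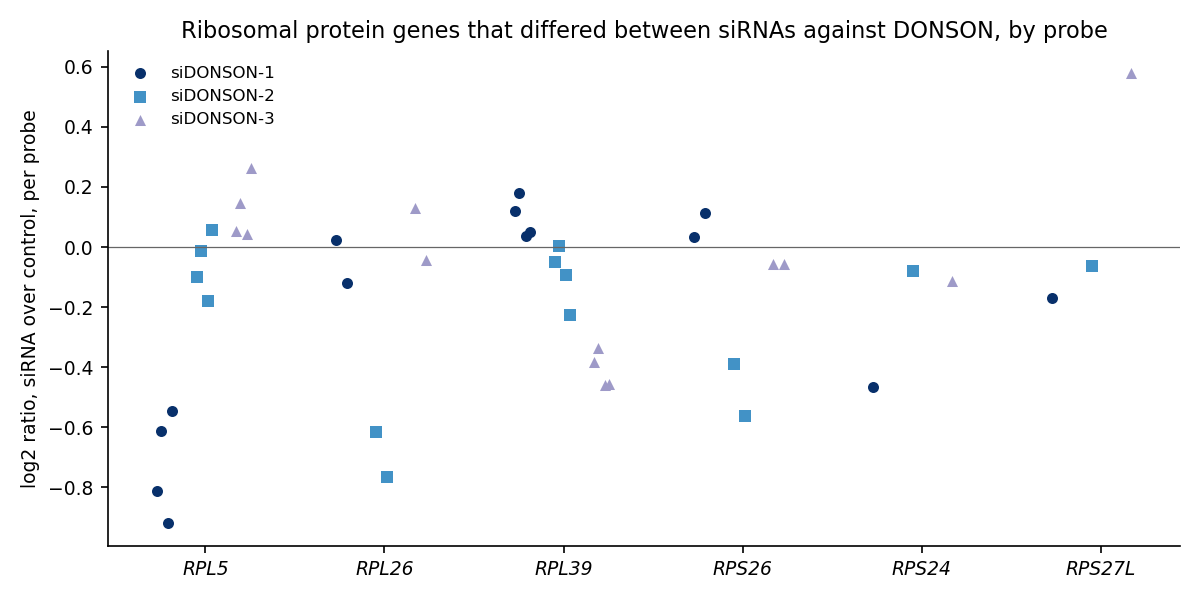
Log2 ratio of siRNA over control RNA (vertical axis) for each probe of 6 members that differed between the siRNAs, with 1 point per probe and array. The 4 RPL5 probes are lowest with siDONSON-1 (-0.92 to -0.54), both RPL26 probes with siDONSON-2 (-0.77 and -0.61), and the 4 RPL39 probes with siDONSON-3 (-0.46 to -0.33).

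Edited A549 cells held most of the calls, 6 members higher and 5 lower, 11 of 78 against a background of 16.5% of genes (8.4% higher and 8.13% lower). RPS21 of the small subunit was highest, at 0.73, 0.82 and 0.72, on average 0.76 (SE 0.08, limma adjusted p = 0.00141). Its other 5 ratios were between 0.02 and 0.25, so the groups did not overlap. RPS20 followed at 0.71, 0.63 and 0.61 (mean 0.65, SE 0.09, limma adjusted p = 0.00324), against -0.14 to 0.32 elsewhere. RPL38, needed for the translation of some Hox mRNAs, had a mean of 0.40, and RPS16, RPL23 and RPL31 of 0.33, 0.30 and 0.26, with limma adjusted p between 0.0167 and 0.0435. On the siDONSON arrays RPL23 and RPL31 had means of 0.31 and 0.25.

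At the low end, RPL30 of the large subunit gave -0.47, -0.53 and -0.53, on average -0.51 (SE 0.08, limma adjusted p = 0.00472), and between -0.06 and 0.20 elsewhere. RPS27A, made as a fusion with ubiquitin, was at -0.31, -0.40 and -0.40 (mean -0.37, SE 0.07, limma adjusted p = 0.0123). RPL36, RPS7, which binds MDM2, and RPLP0, the base of the P stalk that recruits elongation factors, had means of -0.31, -0.30 and -0.29, with limma adjusted p between 0.0263 and 0.0397. RPS7 was below 0 by a near-constant amount, from -0.31 to -0.28. RPLP0 and RPS7 were at 0.04 and 0.02 without dye correction, so their direction rests on it. Leaving out A549-GE1 left 3 members called, and leaving out A549-GE2 or A549-GE3 left 2, with RPS21 and RPS20 called each time. RPS27L had a mean of 0.43 that missed the threshold (SE 0.14, limma adjusted p = 0.0745), although its 3 values, 0.41, 0.45 and 0.43, were close together.

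**Figure D3:**
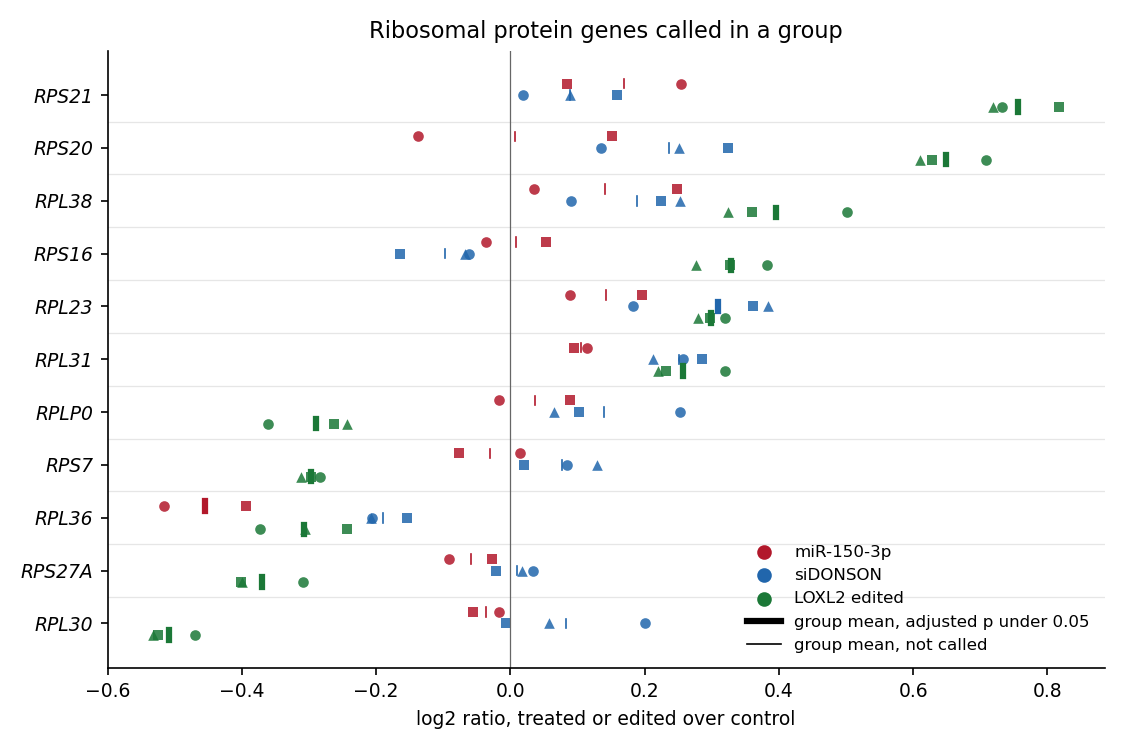
Log2 ratio of treated or edited over control RNA (horizontal axis) on each array for 11 of the 12 members called in at least 1 group, with circle, square and triangle for the arrays 1, 2 and 3 of a group and a thick bar for a mean with adjusted p under 0.05. RPS21 and RPS20 (0.61 to 0.82) and RPL30 (-0.53 to -0.47) on the A549 arrays are separate from all other arrays.

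In edited A549 cells several called members had ratios of the same sign as the genes that lie next to them on the chromosome. This was looked at after the values were seen, with the 10 measured genes either side of each member in RefSeq order, other members left out. All 20 neighbours of RPL30 on chromosome 8 had a mean ratio below 0 on the A549 arrays, with a median of -0.66, lower than RPL30 itself. Its direct neighbours LAPTM4B and SNORA72, which lies in RPL30, were at -0.70 and -0.67, and MTDH and RIDA at -0.73 and -0.71. On the miR-150-3p and siDONSON arrays the median of these 20 genes was -0.04 and 0.08. Of the 20 neighbours of RPS21 on chromosome 20, 19 were above 0, with a median of 0.38. Among them GID8 was at 0.85, CABLES2 at 0.76 and LAMA5 at 0.69, while SLCO4A1 was at -0.97. RPS20, elsewhere on chromosome 8, had 17 of 20 neighbours above 0 with a median of 0.24, and RPL7, also on chromosome 8 and at 0.26, 0.23 and 0.27, had a neighbour median of 0.33. RPS7 on chromosome 2 had 16 of 18 below 0 (median -0.49), RPS27A on chromosome 2 had 17 of 20 below 0 (median -0.29), and RPLP0 on chromosome 12 had 18 of 20 below 0 (median -0.20).

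Not all called members had neighbours like them. Neighbour medians were -0.12 for RPL31, -0.03 for RPL36, -0.01 for RPL23, 0.01 for RPS16 and 0.10 for RPL38. Over the 78 members, the Spearman correlation between a member's mean ratio and its neighbours' median was 0.43 on the edited A549 arrays (Pearson 0.62), 0.14 on the siDONSON arrays and 0.07 on the miR-150-3p arrays. Over the other 11125 genes it was 0.25, 0.03 and 0.05. These are descriptions across genes of the same arrays, and nearby genes share neighbours. With 5 or 20 genes either side, the value for the edited cells was 0.44 and 0.44.

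**Figure D4:**
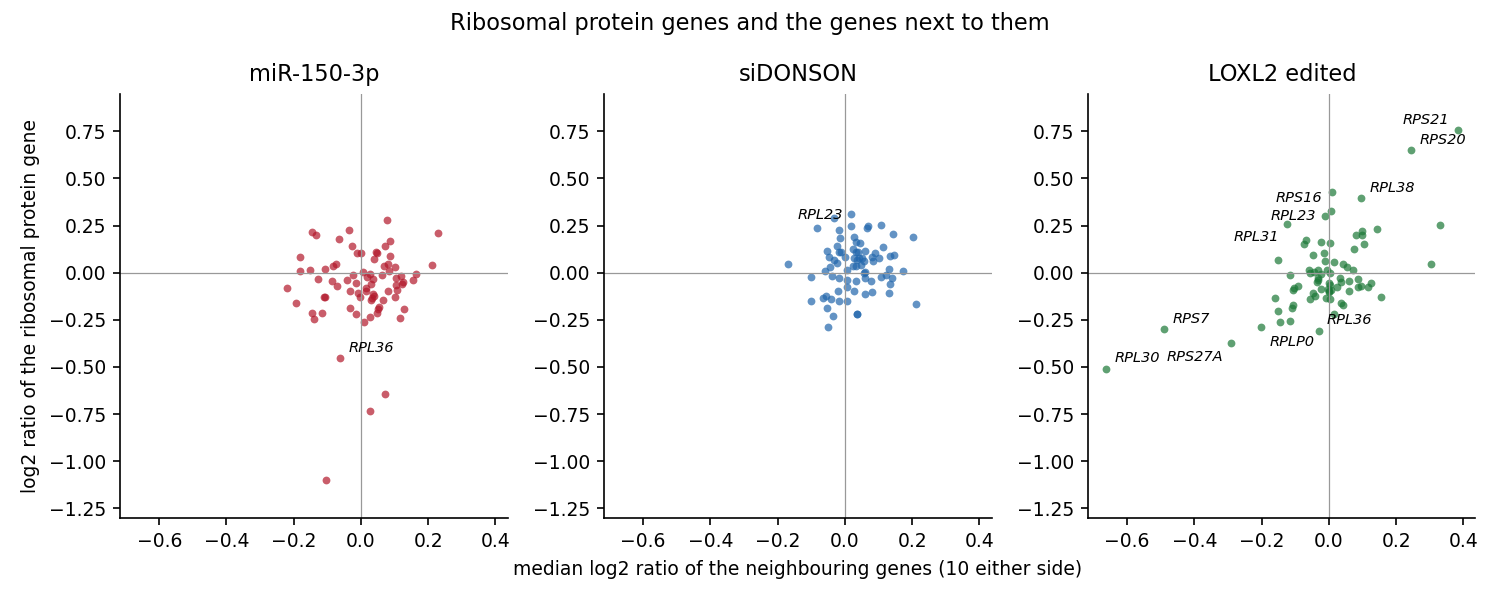
Mean log2 ratio of each of the 78 members (vertical axis) against the median of the mean log2 ratios of up to 20 neighbouring genes (horizontal axis), by group, with the called members described in the text named. On the edited A549 arrays the members run from RPL30 (neighbours -0.66) to RPS21 (neighbours 0.38), while in the other groups the neighbour medians stay between -0.22 and 0.23.

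Comparisons between groups cancel a dye effect that all arrays share. Lower with miR-150-3p than in edited A549 cells were 3 of 78 members (3.85%), against a background of 2.68% of genes lower and 4.68% in either direction, among them RPS20 (difference -0.64, SE 0.14) and RPS21 (-0.59, SE 0.12), with limma adjusted p of 0.0391 and 0.0371. Without the EBC-1 array, or without any 1 of the A549 arrays, none was called; 6 were without SK-MES-1 and 1 without siDONSON-3. RPL30 was at the other end, higher by 0.47 (SE 0.12, limma adjusted p = 0.0632). RPL22 and RPLP0 differed by 0.39 and 0.33 and missed the threshold further.

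Between the siDONSON and edited A549 arrays 5 members differed, against a background of 8.72% (4.08% lower and 4.65% higher). RPS21 (difference -0.67, SE 0.11, limma adjusted p = 0.0116) and RPS16 (-0.43, SE 0.10, limma adjusted p = 0.0428) were lower with the siRNAs. RPL30 (0.59, SE 0.11, limma adjusted p = 0.0165), RPLP0 (0.43, SE 0.11, limma adjusted p = 0.0491) and RPL6 (0.42, SE 0.11, limma adjusted p = 0.0480) were higher. RPL6 was at 0.26, 0.24 and 0.25 with the siRNAs and at -0.09, -0.20 and -0.23 in the edited cells, with no overlap. None of the 5 was called without any 1 of the A549 arrays, 2 were without siDONSON-1 or siDONSON-3, and 9 without EBC-1 or without SK-MES-1.

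Between miR-150-3p and siDONSON no member was called by limma, against a background of 3.92%, and 2 had an unadjusted p under 0.05. Without the SK-MES-1 array 3 were called. RPL39L (difference -0.81) and RPS23 (-0.69) were lowest, with limma adjusted p of 0.25 and 0.173. RPL37, RPL26 and RPS24 were highest, at 0.24, 0.21 and 0.21.

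Several members kept the same sign on all 8 arrays, and with the treated RNA always in Cy5 such a sign cannot be told apart from a dye preference of the probe. Below 0 throughout were 8 members (10.3%, against 5.62% of all genes): RPL23A, RPL29, RPL36, RPL39L, RPLP2, RPS15A, RPS4X and RPS9. Above 0 throughout were another 8 (10.3%, against 6.54%), among them RPL23, RPL28, RPL31, RPL34, RPL35A, RPL38 and RPS21. RPL36, RPL23, RPL31, RPL38 and RPS21 are thus both called in a group and on 1 side of 0 everywhere, and only RPS21 of these was also called in a comparison between groups.

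Among the copies of ribosomal protein genes, RPL39L and RPS27L had wider ranges over the 8 arrays than the genes they resemble. RPL10L, the retrocopy of RPL10 used in male germ cells, was between -0.23 and 0.12. Its only probe was bright, with a mean log2 signal of 15.1, and RPL10 itself had no matched probe. Whether the RPL10L probe also took signal from RPL10 mRNA was not tested. RPL36AL was between -0.20 and 0.04, beside RPL36A between -0.11 and 0.19, and probes for such near-identical copies can share signal. RPS27 was between -0.09 and 0.25, while RPS27L spanned -0.17 to 0.58. Of the P stalk, RPLP1 was between -0.08 and 0.15 and RPLP2 between -0.18 and -0.04.

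Another 6 genes, ribosomal proteins with other symbols, such as RACK1 and FAU, and the copies RPL22L1, RPL26L1 and RPL7L1, gave no limma call in any of the 6 comparisons, with 5 of 36 tests at an unadjusted p under 0.05. RPL7L1 was at -1.28 with siDONSON-3 and at -0.03 and -0.04 with the other siRNAs. RPL22L1 was at -0.51 and -0.70 with siDONSON-1 and siDONSON-3, and at 0.01 with siDONSON-2.

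Genes that make and serve ribosomes were followed as 5 lists. The counts of all 5 are to be read against the share of all genes called, which was 6.5% lower and 4.63% higher with miR-150-3p, 4.36% and 5.58% with siDONSON, and 8.13% and 8.4% in edited A549 cells. With miR-150-3p the medians of all 5 lists were lower on the EBC-1 array than on SK-MES-1. They were -0.45 and -0.08 for biogenesis factors, -0.32 and -0.07 for RNA polymerase I genes, and -0.34 and -0.08 for mitochondrial ribosomal protein genes. For elongation and TOP mRNA genes they were -0.31 and -0.07, and for initiation factors -0.17 and 0.002. Of 77 ribosome biogenesis factors measured, 20 were called lower and none higher in edited A549 cells (26% of the list lower), with a median of -0.24. BOP1 and NOL10, of pre-rRNA processing, were at -0.90 and -0.83 (limma adjusted p = 0.00325 and 0.00383). With miR-150-3p, 7 were lower (9.09%) and 1 higher (median -0.28), and with siDONSON 2 were lower (2.6%) and 2 higher (median -0.08). NOP56 of the box C/D particle was at -0.75 with miR-150-3p (limma adjusted p = 0.0408), and the nuclear export adaptor NMD3 at -0.43 with siDONSON (limma adjusted p = 0.0158).

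Of 20 genes of RNA polymerase I and its factors, 4 (20%) were lower with miR-150-3p, led by the subunit POLR1G (-0.92, limma adjusted p = 0.0158) and TAF1A (-0.77, limma adjusted p = 0.0251). In edited A549 cells 3 (15%) were lower and 1 higher, with POLR1A at -0.69 and POLR2L at 0.43 (limma adjusted p = 0.00622 and 0.00892), and limma called none with siDONSON (3 at an unadjusted p under 0.05). Of 35 initiation factors, 7 (20%) were lower in edited cells, with EIF3E at -0.85 (limma adjusted p = 0.00113), 1 (2.86%) was lower with miR-150-3p, and 1 was higher (EIF5, 0.45, limma adjusted p = 0.0445) and 1 lower with siDONSON (2.86% each).

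Another 19 genes were listed for translation elongation and TOP mRNAs, among them EEF2K, a kinase gene, and GSPT1, a release factor gene. In edited cells 7 (36.8%) were lower, with PABPC1, the poly(A)-binding protein, at -1.05 (limma adjusted p = 0.00297). PABPC1, EIF3E and BOP1 are on chromosome 8, as RPL30 is. Not all genes there were lower: RPS20 and RPL7, also on chromosome 8, had means of 0.65 and 0.25 in edited cells. RPL8, another member on chromosome 8, had a mean of -0.26 in these cells. With miR-150-3p, 2 (10.5%) were lower, EEF2K (-0.63) and GSPT1 (-0.49), with limma adjusted p of 0.0245 and 0.0208, and with siDONSON 2 (10.5%) were, EIF5A (-0.48) and EEF2K (-0.39), with limma adjusted p of 0.0129 and 0.0454. Of 77 mitochondrial ribosomal protein genes, 10 (13%) were lower and 1 higher with miR-150-3p (median -0.22), led by MRPS11 (-1.34) and MRPS6 (-1.02), with limma adjusted p of 0.0114 and 0.0163. With siDONSON 5 (6.49%) were lower and 2 (2.6%) higher, with MRPL17 at 0.60, and in edited cells 7 (9.09%, near the share of all genes) were lower and 1 higher, with MRPL35 at -0.65 (limma adjusted p = 0.0103 and 0.00449).

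Control cells differed in some of these mRNAs before any treatment. The Cy3 signal was set against the array's 75th percentile on the log2 scale, and compared between lines for the same probes only. Members had a median range of 0.93 across the 4 lines. SBC-3 was highest for 59 of 78 members, EBC-1 for 14, A549 for 3 and SK-MES-1 for 2; after quantile normalization these counts were 39, 10, 22 and 7, with a median range of 0.61. RPS27L went another way: it was highest in A549 at 4.78 and lowest in EBC-1 at 2.74, with SK-MES-1 at 3.72 and SBC-3 at 3.60. RPL39L was highest in SK-MES-1 at 1.01, against -0.04 in A549, -0.16 in SBC-3 and -0.44 in EBC-1. RPL22 was at 2.14 in SBC-3, against 1.14 in EBC-1, 0.80 in A549 and 0.59 in SK-MES-1. RPS23 and RPL17 had ranges of 2.12 and 1.95, with SBC-3 highest. The highest line of these 5 genes was the same after quantile normalization. The SD over the 3 arrays of a line was at most 0.10 for these 5 genes in SBC-3 and at most 0.04 in A549, and EBC-1 and SK-MES-1 had 1 array each, so no test was made.

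**Figure D5:**
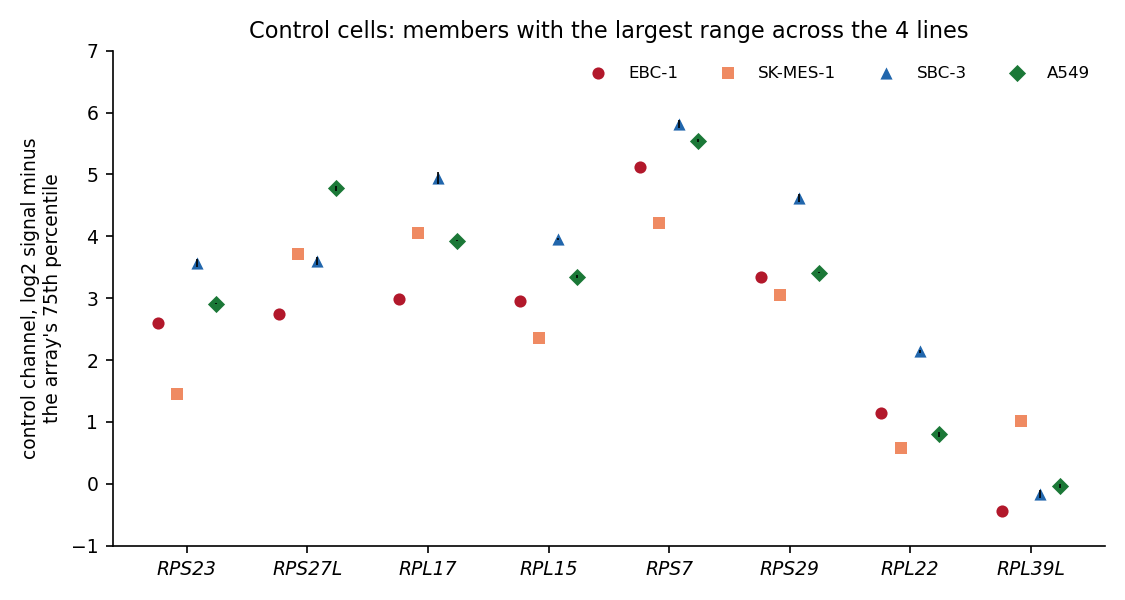
Control channel signal (vertical axis, log2 minus the array's 75th percentile) in the 4 cell lines for the 8 members with the largest range, with error bars of 1 SD over the 3 arrays of SBC-3 and A549 and single arrays for the others. Levels are to be compared within a gene: SBC-3 is highest for 6 of them (RPS7 was highest in A549 after quantile normalization), A549 for RPS27L and SK-MES-1 for RPL39L.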

How the data were processed

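RNA was extracted with Trizol, and the arrays shared 1 slide. The authors deposited Feature Extraction 12.1.1.1 scanner output: background-subtracted, dye-normalized Cy5 and Cy3 intensity per spot, and a table of log10 ratios equal to those of the scanner files. The study's methods describe only the miR-150-3p arrays. Probes were named from their accessions through RefSeq (31104 of 58201 probes). Values are log2 of the Cy5 over Cy3 processed intensity, averaged over a gene's probes whose spots were not outliers (81 to 133 flagged per array, none saturated) and were well above background in both channels on all 8 arrays. Group means and their differences were tested with limma 3.58.1 (lmFit, eBayes, 5 residual degrees of freedom, Benjamini-Hochberg over 11214 genes), called at an adjusted p under 0.05. Precision is limited by how few arrays there are. Probes were not screened against processed pseudogenes, which are many for these genes. The script was tested on simulated data. Named genes were the called members, the 5 lowest and highest of each group and the 3 lowest and highest of each difference, L-suffix copies, RPL5, RPL11, the P stalk, and the 2 lowest and highest of each pathway list. Some genes that these rules name are not reported here, though counts include them. Members and lists were chosen with earlier results of these data known. Neighbouring genes came from RefSeq gene order. Alternatives changed the background correction (normexp, offset 50, on median spot signals), loess, centring, filters, probes and arrays. Differences of single siRNAs were chosen after their values were seen.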

Additional observations from a re-analysis of the deposited data

Results flagged for a closer look

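RPL39L was the only member whose ratio differed between both miR-150-3p arrays in a test of the difference, -1.96 in EBC-1 against -0.24 in SK-MES-1, a difference of -1.72 (SE 0.20, limma adjusted p = 0.0123). With 1 array per line, the spread in this test came from the siDONSON and A549 arrays. The difference was past the threshold under all 10 other settings tried, and was -1.07 with normexp and loess (limma adjusted p = 0.0117). The highest adjusted p, 0.0468, came with no filter on background. Its control level was higher in SK-MES-1 (1.01) than in EBC-1 (-0.44), each on 1 array, and the part of that in the result was not tested.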

How the results depend on the processing

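Of the 22 calls of members, all 22 were past the threshold with normexp and loess, with the deposited ratio table and with outlier spots kept, 21 with median centring, and 19 with the brightest probe or a filter per array. The direction turned in only 2, both without dye correction: RPLP0 (0.036) and RPS7 (0.024) in edited A549 cells. Counts of members called follow, in the order miR-150-3p (2 in the main analysis), siDONSON (1), LOXL2 edited (11), miR-150-3p minus siDONSON (0), miR-150-3p minus LOXL2 edited (3) and siDONSON minus LOXL2 edited (5). They were 7, 12, 25, 1, 10 and 10 with normexp and loess, and 7, 13, 25, 1, 10 and 11 with ribosomal protein probes left out of that loess. They were 20, 39, 32, 0, 0 and 4 without dye correction, where all calls against 0 were higher. They were 0, 0, 7, 0, 0 and 1 with no filter on background. With signal above background in 1 channel, siDONSON had 0, miR-150-3p minus LOXL2 edited 0 and siDONSON minus LOXL2 edited 2. With the brightest probe, siDONSON had 5 and siDONSON minus LOXL2 edited 3. Groups fitted alone gave 0, 0 and 36. With EBC-1 and SK-MES-1 as groups of their own, miR-150-3p had 4. Leaving out 1 array gave 0 to 6, 0 to 5, 2 to 15, 0 to 3, 0 to 6 and 0 to 9. For siDONSON minus LOXL2 edited, the replicate block gave 2, against 9 in the same 6 arrays without it; the numbers do not pair the samples (correlations -0.03, -0.0008 and -0.03), and not every sample correlated best with its own number. The cause of these changes was not tested. The mean of the large subunit medians was 0.026, 0.076 and -0.019 for miR-150-3p, siDONSON and LOXL2 edited with normexp and loess (-0.04, 0.05 and -0.05 in the main analysis). It was 0.022, 0.086 and -0.022 with member probes left out of the loess, and 0.28, 0.31 and 0.23 without dye correction. For the small subunit (-0.08, 0.02 and -0.02) miR-150-3p gave -0.013 and LOXL2 edited 0.0048 with normexp and loess, -0.016 and -0.00080 with member probes left out, and the 3 groups gave 0.24, 0.31 and 0.27 without dye correction. With the brightest probe, LOXL2 edited gave -0.0075 and 0.019. Leaving out 1 array moved these medians to -0.07 to -0.02, 0.03 to 0.06 and -0.06 to -0.05 (large), and to -0.11 to -0.05, 0.0009 to 0.04 and -0.03 to -0.01 (small). Control level differences between the lines highest and lowest in the main analysis became 1.91 (RPS23, main 2.12), 2.46 (RPS27L, main 2.04) and 1.43 (RPL15, main 1.60) with quantile normalization, and 1.97 for RPS27L after background subtraction. SBC-3 minus SK-MES-1 became 1.32 for RPS7 (main 1.60), where A549 was then highest and the range across lines 1.58. Naming probes by a gene name column was not run.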
